A study of Mus musculus with 18 samples.

Results

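The miR-101 and miR-26 families are 2 groups of microRNAs known to target the mRNA of Ezh2, and their 4 guide strands, mmu-miR-101a-3p, mmu-miR-101b-3p, mmu-miR-26a-5p and mmu-miR-26b-5p (written without the species prefix from here on), are followed here through normal mouse adrenal gland and neuroblastoma. The members were chosen by name, with earlier results of these data known, and all 4 were found among the 1966 mature miRNAs of the deposited table. Small RNA of 18 libraries was sequenced. AG are 3 adrenal glands of mice without Cre (genotype CRE -), which the study describes as wildtype. TI are 7 tumors of R26 IGF2BP1 mice, 6 labelled IGF2BP1 +/+ with Cre and 1 labelled IGF2BP1 +/- with Cre, and 1 of the 7 came from the adrenal gland. TIM are 8 tumors of R26 IGF2BP1/MYCN mice (genotype IMP1/MYCN, CRE +), of which 2 came from the adrenal gland and 1 from the spine. The labels call all tumors neuroblastoma and give neither age nor sex. According to the methods of the study, both transgenes sit behind a stop cassette that Cre removes, IGF2BP1 was inserted at the Rosa26 locus without its 3′UTR, Cre was expressed from the Dbh promoter, which is active in adrenal glands and peripheral nerves, and the strains were backcrossed to a C57Bl6/N background. The columns of the table name the group of a library but not the mouse, so the heterozygous, adrenal and spinal tumors could not be set apart.

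A miRNA is cut from a hairpin into a guide strand, which is loaded into an Argonaute protein, and a passenger strand, most of which is degraded. The guide binds target mRNAs mainly through its seed, bases 2 to 8 from the 5′ end, and lowers their stability and translation. EZH2 is the catalytic subunit of Polycomb repressive complex 2, which methylates histone H3 at lysine 27 and keeps developmental genes silent, and its mRNA is a textbook target of both families. The human MYCN 3′UTR reporter of the study also held sites for miR-101, of which some but not all were mutated. IGF2BP1 is an RNA-binding protein that can shield mRNAs from miRNAs. The levels of the families in these tumors are therefore of interest beside the transgenes. Ezh2 mRNA was not analysed here.

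The mature sequences of the 4 guides, from RefSeq on GRCm38.p6, are shown because the seed, in capitals, decides which transcripts a member can pair with.
miR-101a-3p: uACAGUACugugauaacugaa
miR-101b-3p: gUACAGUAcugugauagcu
miR-26a-5p: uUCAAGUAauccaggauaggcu
miR-26b-5p: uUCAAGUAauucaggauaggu
The miR-26 guides had the same seed, and miR-26b-5p differed from miR-26a-5p by C11U and C21U, counted from 1 at the 5′ end of miR-26a-5p. The annotated miR-101b-3p starts 1 base before miR-101a-3p, which shifts its seed by 1 base. Over the 18 bases that the miR-101 guides share they differed by A16G, counted from 1 at the 5′ end of miR-101a-3p. Of the 1675 miRNAs in the table that matched a RefSeq sequence, no other had bases 2 to 8 of either miR-101 seed or of the miR-26 seed. Bases 2 to 7 of miR-101a-3p also occurred in miR-144-3p, those of miR-101b-3p in miR-582-5p and those of the miR-26 guides in miR-6371.

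The 4 guides come from 5 hairpins. In GRCm38.p6, miR-101a-3p lies at chr4:101346957-101346977 on the minus strand, and miR-101b-3p at chr19:29135338-29135356 on the plus strand. The sequence of miR-26a-5p is encoded at 2 places, chr9:119031811-119031832 and chr10:126995543-126995564, both on the plus strand, and its reads cannot be divided between them. miR-26b-5p lies at chr1:74394324-74394344 on the plus strand. In the GENCODE annotation of GRCm39, Mir101a overlapped an exon of the long non-coding RNA gene E130102H24Rik, and Mir101b lay in an intron of Rcl1. The 3 miR-26 hairpins lay within genes of the CTD small phosphatase family on the same strand, Mir26a-1 in an intron of Ctdspl, Mir26b in an intron of Ctdsp1 and Mir26a-2 within Ctdsp2, where only a non-canonical transcript had an exon over it.

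To show where the seeds pair in the transcripts of interest, the 3′UTRs of the canonical mouse transcripts of Ezh2 and Mycn were searched on the sense strand for the complements of bases 2 to 8. These are TACTTGA for the miR-26 guides, GTACTGT for miR-101a-3p and TACTGTA for miR-101b-3p, and the last 2 motifs overlap by 6 bases where GTACTGTA occurs. The match is in capitals, and positions count from the first base after the stop codon.
Ezh2, miR-26 match at bases 248 to 254: gaataaagaaTACTTGAacttg
Ezh2, miR-101a-3p match at bases 59 to 65: ggaaccttgaGTACTGTgggca
Ezh2, miR-101a-3p match at bases 114 to 120: aatttgcaaaGTACTGTaacag
Mycn, miR-101a-3p match at bases 489 to 495: tcacacctaaGTACTGTaagaa
Mycn, miR-101a-3p match at bases 556 to 562: aatctgttatGTACTGTactaa
Mycn, miR-101b-3p match at bases 762 to 768: cttccttgttTACTGTAtttgt
The Ezh2 3′UTR of 402 bases held 1 match to the miR-26 seed, 2 to that of miR-101a-3p and 1 to that of miR-101b-3p, which overlapped the second miR-101a-3p match. Among 1778 mouse 3′UTRs of 0.8 to 1.25 times that length, 2.92% held the miR-26 motif, 2.59% the miR-101a-3p motif and 2.53% the miR-101b-3p motif. The Mycn 3′UTR of 931 bases held 2 matches for miR-101a-3p and 3 for miR-101b-3p, of which 2 overlapped those of miR-101a-3p, and 0 for the miR-26 seed in this window. The shares among 2638 3′UTRs of like length were 6.33%, 8.83% and 6.22%. A match describes letters and is not a site in use. The human MYCN transgene of the TIM mice lacks its native 3′UTR, so these Mycn matches concern the endogenous gene only.

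The values are CPM, counts of reads per miRNA scaled to a common library total and by the TMM factor of the library, a normalization that brings the bulk of miRNAs to a common level. The libraries held 11641696 to 23435621 reads on miRNAs, and each member had between 5050 and 1053711 reads in every library, so counting error was small beside the spread between libraries. A single miRNA, miR-148a-3p, took 4.19% to 6.94% of the reads in AG, 2.29% to 61.9% in TI and 6.53% to 44.2% in TIM, and the TMM factors ran from 0.700 to 1.85. Scaling therefore moves the values, and results that turn on it are named. Where totals that exclude miR-148a-3p are used below, the TMM factor is also omitted, so 2 things change from the main fit. The TI library with 2.29% miR-148a-3p stood apart from the other TI libraries, which had at least 30.1%. A TIM library had 22972 CPM of summed striated muscle miRNAs, where all other libraries had at most 344 CPM. A pair of TIM libraries, with 12133274 and 11641696 reads, had the highest TMM factors, 1.80 and 1.85. Their profiles were closer to each other than those of any other TIM pair, with a chi-square per miRNA of 505 against at least 1451, while 1 AG pair had 445. Results are given without the TI library low in miR-148a-3p, the TIM library with striated muscle miRNAs and the TIM pair. The AG pair was not left out together. The limma fit took log2(CPM + 1) of the 726 miRNAs that reached 1 CPM in 3 or more libraries, a filter that all 4 members passed, with Benjamini-Hochberg adjustment over these 726. The p-values measure the spread between libraries. The study describes replicates as individual mice but also several tumors in an R26 IGF2BP1/MYCN animal, and the columns do not show whether any TIM libraries share a mouse.

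miR-101a-3p, the more abundant miR-101 guide, was lower in both tumor types. The 3 AG libraries had 11120, 12046 and 12787 CPM. In TI the lowest library had 3064, the median 4459 and the highest 5231 CPM, and in TIM these were 3214, 3705 and 8139 CPM. All 7 TI and all 8 TIM libraries lay below all AG libraries, and the TIM library with 8139 CPM was far above the next, at 4681 CPM. AG averaged 11984 ± 835 CPM (SD, n = 3), TI 4075 ± 802 CPM (SD, n = 7) and TIM 4351 ± 1598 CPM (SD, n = 8). The level was 2.99-fold lower in TI (log2 fold change -1.58, standard error 0.27, limma adjusted p = 0.000111) and 2.87-fold lower in TIM (log2 fold change -1.52, standard error 0.27, limma adjusted p = 0.000128). With totals that exclude miR-148a-3p and no TMM factor these were -1.05 in TI and -0.93 in TIM (limma adjusted p = 0.0118 and 0.0238). Omitting the TMM factor alone gave -1.79 in TI and -1.18 in TIM.

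miR-101b-3p, whose seed is shifted by 1 base, was lower in TI, and its difference in TIM did not pass. The AG libraries had 2554, 3075 and 3249 CPM. TI ranged from 1426 to 2590 CPM with a median of 1962, and TIM from 1838 to 3109 CPM with a median of 2252. Of the libraries, 6 of 7 in TI and 6 of 8 in TIM lay below all AG libraries, and the rest were within the AG range. AG averaged 2959 ± 361 CPM (SD, n = 3), TI 1950 ± 384 CPM (SD, n = 7) and TIM 2368 ± 489 CPM (SD, n = 8). In TI it was 1.53-fold lower (log2 fold change -0.62, standard error 0.24, limma adjusted p = 0.0369). In TIM the log2 fold change was -0.34 (standard error 0.24, limma adjusted p = 0.241), with a 95% confidence interval from -0.84 to 0.16. The call in TI was not firm. It was lost without any 1 of the 3 AG libraries (limma adjusted p = 0.112, 0.0508 and 0.134) and without either of the 2 TI libraries with the lowest levels (limma adjusted p = 0.0546 and 0.0650). It was also lost when library totals excluded miR-148a-3p and the TMM factor was omitted. The log2 fold change was then -0.091 in TI and 0.26 in TIM. Omitting the TMM factor alone gave -0.83 in TI and 0.0055 in TIM.

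miR-26a-5p was the most abundant member, and its absolute drop was the largest of the 4. AG had 37680, 38311 and 48715 CPM. TI ranged from 6001 to 17740 CPM with a median of 6974, and TIM from 3911 to 16961 CPM with a median of 7299. Every tumor library was below every AG library, and within each tumor type some libraries were well above the rest. In TI, 2 libraries had 15144 and 17740 CPM and the other 5 at most 7377. In TIM, 3 libraries had 14906 to 16961 CPM and the other 5 at most 7706. The TI library at 17740 CPM was the one with little miR-148a-3p, and the TIM library at 15193 CPM was the one with striated muscle miRNAs. By mean, miR-26a-5p ranked 6th of all miRNAs in AG and 18th in both TI and TIM. AG averaged 41568 ± 6197 CPM (SD, n = 3), TI 9459 ± 4849 CPM (SD, n = 7) and TIM 9494 ± 5287 CPM (SD, n = 8). The level was 4.80-fold lower in TI (log2 fold change -2.26, standard error 0.46, limma adjusted p = 0.000560) and 5.0-fold lower in TIM (log2 fold change -2.32, standard error 0.46, limma adjusted p = 0.000379). With totals that exclude miR-148a-3p the log2 fold change of miR-26a-5p was -1.74 in TI and -1.73 in TIM (limma adjusted p = 0.00148 and 0.00131).

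miR-26b-5p, with the same seed as miR-26a-5p, was the least abundant guide. AG had 1886, 2261 and 2325 CPM. TI ranged from 350 to 1098 CPM with a median of 660, and TIM from 249 to 1585 CPM with a median of 441. All tumor libraries were again below all AG libraries, and the spread was widest in TIM. AG averaged 2157 ± 237 CPM (SD, n = 3), TI 713 ± 266 CPM (SD, n = 7) and TIM 629 ± 455 CPM (SD, n = 8). The level was 3.21-fold lower in TI (log2 fold change -1.68, standard error 0.49, limma adjusted p = 0.00748) and 4.14-fold lower in TIM (log2 fold change -2.05, standard error 0.48, limma adjusted p = 0.00179). With totals that exclude miR-148a-3p the value was -1.16 in TI (limma adjusted p = 0.0605) and -1.46 in TIM (limma adjusted p = 0.0215).

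**Figure D1:**
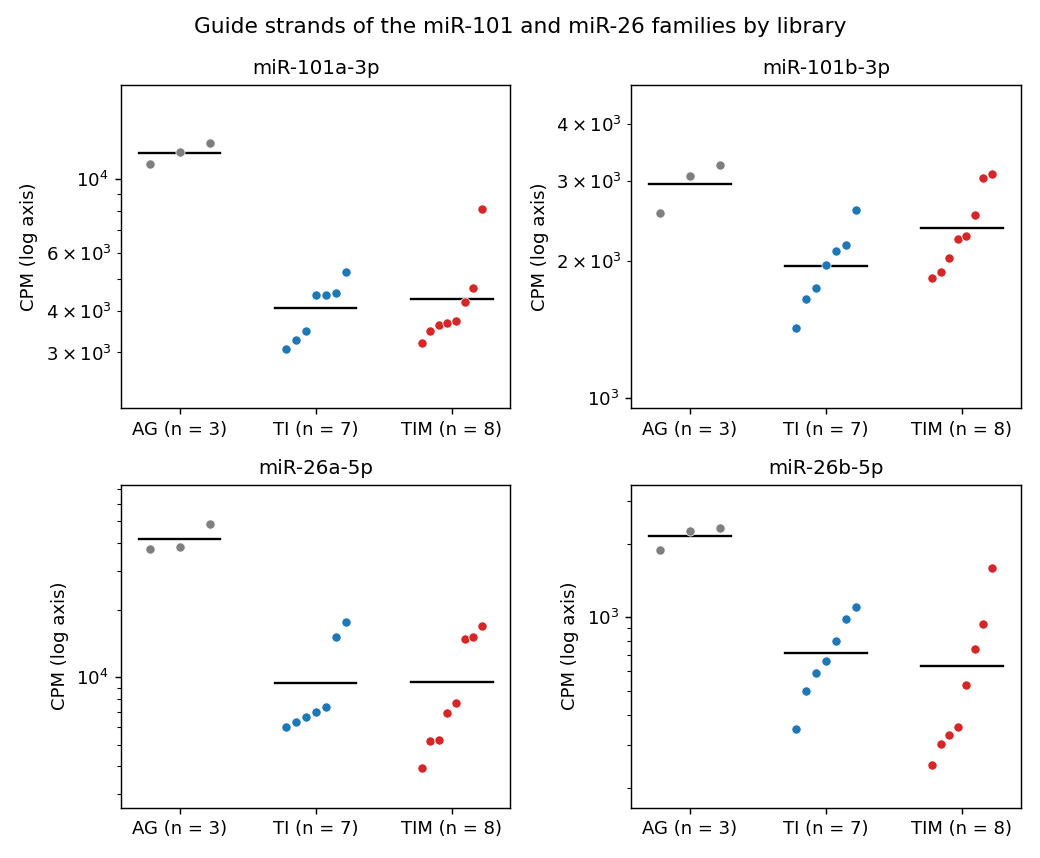
CPM of each guide strand on a log axis in the libraries of AG (grey), TI (blue) and TIM (red), with a point for each library, sorted by value within its group, and a line at the arithmetic mean. All tumor libraries lie below all AG libraries for miR-101a-3p, miR-26a-5p and miR-26b-5p, while for miR-101b-3p 1 TI and 2 TIM libraries lie within the AG range of 2554 to 3249 CPM.

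The fall was thus called for 4 of 4 members in TI, where 29.3% of all miRNAs tested were called lower, 26.4% higher and 55.8% in either direction. It was called for 3 of 4 members in TIM, where 25.9% were called lower, 25.5% higher and 51.4% in either direction. For 3 of the 4 members all libraries of a tumor type were below all AG libraries, against 24.4% of the miRNAs tested in TI, 22% in TIM and 17.9% for both tumor types together. The median log2 fold change over all miRNAs tested was -0.01 in TI and 0.18 in TIM. The members were not drawn at random, so these shares describe the setting and test nothing. In bulk tissue, fewer cells of a type that holds a miRNA and less of it per cell cannot be told apart. Most tumors did not come from the adrenal gland and the labels give no age. Tumor against normal tissue therefore cannot be told apart here from tissue site or age.

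These differences were of like size without the libraries that stood apart. Without the TI library low in miR-148a-3p, the log2 fold change in TI was -1.53 for miR-101a-3p, -0.60 for miR-101b-3p, -2.44 for miR-26a-5p and -1.78 for miR-26b-5p, with limma adjusted p = 0.000190, 0.0489, 0.000198 and 0.00613. Without the TIM library with striated muscle miRNAs, the log2 fold change in TIM was -1.55 for miR-101a-3p, -0.33 for miR-101b-3p, -2.45 for miR-26a-5p and -2.05 for miR-26b-5p. The corresponding limma adjusted p were 0.000201, 0.276, 0.000242 and 0.00285. Without the pair of TIM libraries with the highest TMM factors, a choice made after seeing the data, the log2 fold change in TIM was -1.43 for miR-101a-3p, -0.42 for miR-101b-3p, -2.03 for miR-26a-5p and -1.77 for miR-26b-5p (limma adjusted p = 0.000593, 0.166, 0.00114 and 0.00540).

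**Figure D2:**
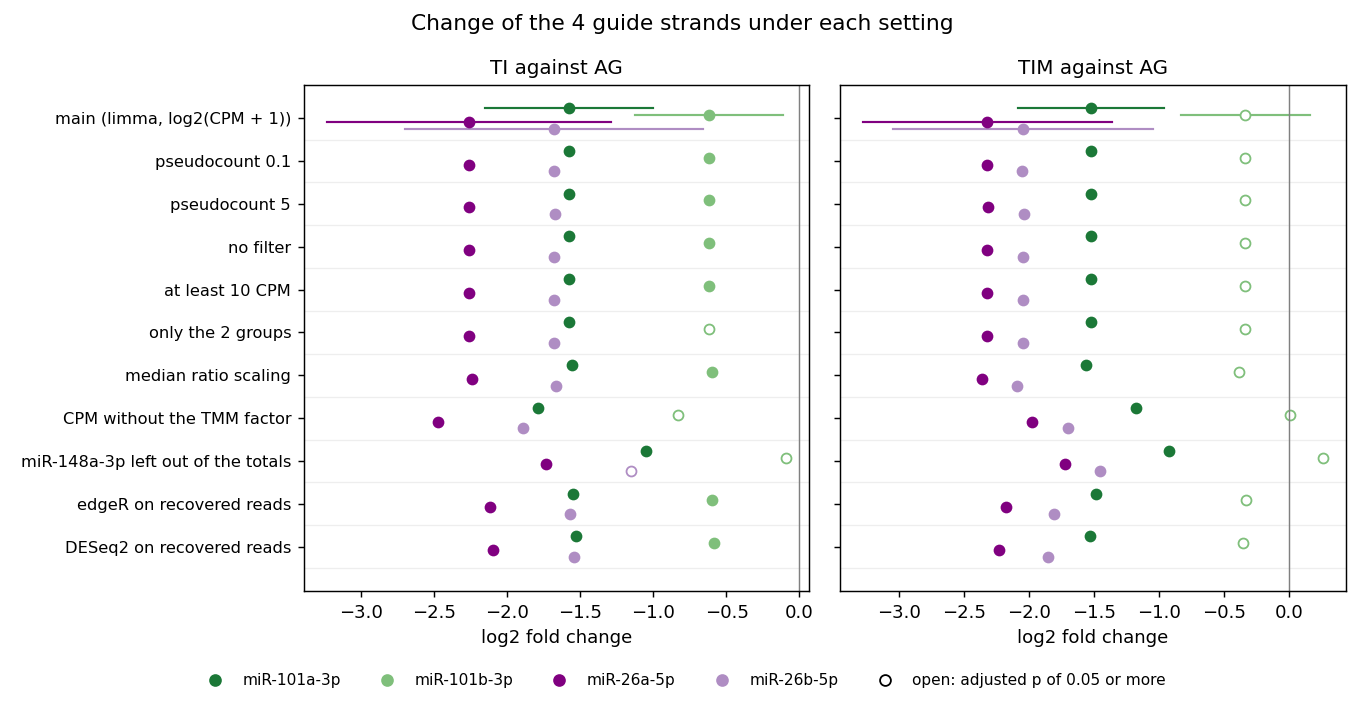
Log2 fold change of each guide strand against AG, in TI (left) and TIM (right), under the main fit and each other setting, filled where the adjusted p was under 0.05 and open otherwise; bars on the main fit are 95% confidence intervals. Library totals without miR-148a-3p, which also omit the TMM factor, moved all 4 guides up. For miR-101b-3p they gave -0.091 in TI and 0.26 in TIM, where omitting the TMM factor alone gave -0.83 and 0.0055. The points of miR-101a-3p and miR-26a-5p were filled under every setting.

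TIM and TI do not differ by the MYCN transgene alone. The labels give IGF2BP1 +/+ for 6 of 7 TI mice. According to the study the double transgenic mice had no wildtype Rosa26 locus, which leaves a single allele for each transgene, and they reached the end point earlier. These factors cannot be told apart here. Between the tumor types 0 of 4 members were called by limma, 0 had an unadjusted p under 0.05, and edgeR and DESeq2 on the recovered reads also called 0. Of all miRNAs tested 5.23% were called, 3.44% higher and 1.79% lower in TIM. For miR-101a-3p the log2 difference TIM minus TI was 0.06 (95% confidence interval -0.37 to 0.49, limma adjusted p = 0.914), and for miR-101b-3p it was 0.28 (-0.10 to 0.66, limma adjusted p = 0.374). For miR-26a-5p it was -0.06 (-0.79 to 0.67, limma adjusted p = 0.955) and for miR-26b-5p -0.37 (-1.13 to 0.40, limma adjusted p = 0.602). The intervals leave room for a difference of up to 1.13 on the log2 scale for miR-26b-5p, so equal levels were not shown. With CPM that omit the TMM factor, miR-101b-3p was higher in TIM by 0.84 (limma adjusted p = 0.0367) and the difference of miR-101a-3p was 0.61 (limma adjusted p = 0.0522), where the median over all miRNAs tested was also 0.49 higher.

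Ratios of 2 guides within a library do not depend on how the library is scaled. The ratio of miR-101b-3p to miR-101a-3p was 0.230, 0.254 and 0.255 in AG. It ranged from 0.415 to 0.579 in TI with a median of 0.466, and from 0.382 to 0.838 in TIM with a median of 0.518. All tumor libraries had a higher ratio than all AG libraries, so within the family miR-101b-3p made up a larger part in every tumor. How many ratios of other miRNAs separate in this way was not computed. The log2 ratio was higher by 0.96 for TI (p = 0.0167 by a two-sided exact permutation test, the smallest it can give) and by 1.18 for TIM (p = 0.0121 by a two-sided exact permutation test, the smallest it can give). After adjustment over the 9 ratio tests both had p = 0.075 (exact permutation test), which misses the threshold. With the p taken from the absolute difference both adjusted values were 0.0375 (exact permutation test). TIM minus TI was 0.22 (exact permutation test, p = 0.186, adjusted p = 0.279). The highest ratios, 0.787 and 0.838, were those of the pair of TIM libraries with the highest TMM factors. Without this pair the log2 ratio in TIM was higher than in AG by 1.003 (exact permutation test, p = 0.0238, the smallest it can give, adjusted p = 0.107), and TIM minus TI was 0.042 (exact permutation test, adjusted p = 0.830).

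The ratio of miR-26b-5p to miR-26a-5p was 0.0477, 0.050 and 0.0590 in AG, 0.0555 to 0.109 in TI with a median of 0.0750, and 0.0347 to 0.180 in TIM with a median of 0.0575. The groups overlapped. The log2 ratio differed from AG by 0.58 in TI (exact permutation test, p = 0.05, adjusted p = 0.15) and by 0.27 in TIM (exact permutation test, p = 0.630, adjusted p = 0.709). TIM minus TI was -0.31 (exact permutation test, p = 0.351, adjusted p = 0.451). A change in the balance of the miR-26 guides was not detected with these numbers of libraries.

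Across the families, the ratio of miR-101a-3p to miR-26a-5p was 0.247, 0.295 and 0.334 in AG, 0.185 to 0.786 in TI with a median of 0.511, and 0.251 to 0.927 in TIM with a median of 0.543. Most tumors were above AG, 5 of 7 in TI and 6 of 8 in TIM, and the rest fell within or below the AG range. The log2 ratio differed from AG by 0.68 in TI (exact permutation test, p = 0.183, adjusted p = 0.279) and by 0.80 in TIM (exact permutation test, p = 0.0727, adjusted p = 0.164), and TIM minus TI was 0.12 (exact permutation test, p = 0.742, adjusted p = 0.742). That miR-26a-5p fell further than miR-101a-3p was therefore not shown by this test.

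**Figure D3:**
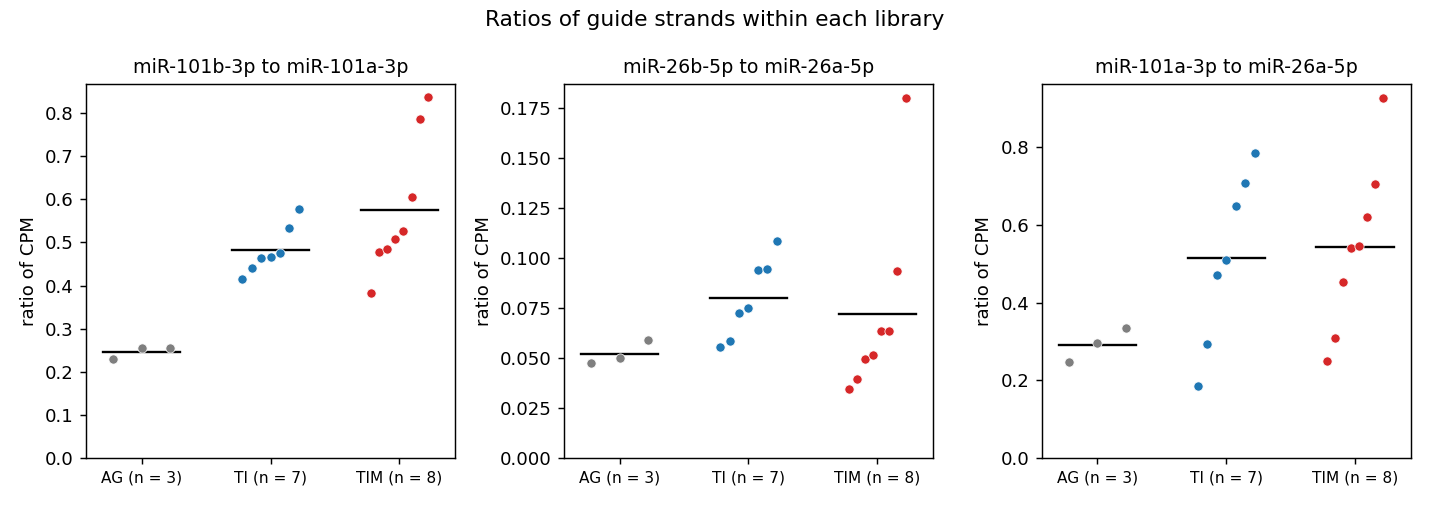
Ratio of CPM between guide strands in each library of AG, TI and TIM, on linear axes from 0, with points sorted by value within a group and a line at the arithmetic mean. The ratio of miR-101b-3p to miR-101a-3p is 0.230 to 0.255 in AG and at least 0.382 in every tumor, while the other 2 ratios overlap between groups.

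In shares of all reads, before any TMM scaling, the miR-101 guides together took 1.36% to 1.51% in AG, 0.367% to 0.604% in TI and 0.442% to 1.23% in TIM. The miR-26 guides took 3.81% to 4.73% in AG, 0.501% to 1.65% in TI and 0.581% to 2.43% in TIM. The sum of neither family overlapped between AG and the tumors. On its own, miR-101b-3p took 0.253% to 0.305% in AG, 0.117% to 0.221% in TI and 0.152% to 0.561% in TIM, which overlaps AG. These shares are of all reads, of which miR-148a-3p took up to 61.9% in TI and 44.2% in TIM. How many of all miRNAs separate on this scale was not computed. By mean CPM, miR-101a-3p ranked 21st in AG, 33rd in TI and 32nd in TIM, and miR-101b-3p 40th, 48th and 45th. miR-26b-5p ranked 44th in AG, 79th in TI and 86th in TIM.

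The table also holds 6 other mature miRNAs of these families, of which 4 passed the filter. They are the passenger arms miR-101a-5p, miR-101b-5p, miR-26a-1-3p, miR-26a-2-3p and miR-26b-3p, and the paralog miR-101c. All were scarce beside the guides. miR-26a-2-3p, the arm opposite miR-26a-5p on the hairpin in Ctdsp2, had 10.4, 10.9 and 14.5 CPM in AG, 2.27 to 7.05 in TI and 2.78 to 11.5 in TIM. It was lower in both tumor types, with a log2 fold change of -1.17 in TI (limma adjusted p = 0.0116) and -0.90 in TIM (limma adjusted p = 0.0434). As a share of miR-26a-5p reads it was 0.0277% to 0.0297% in AG, 0.0180% to 0.117% in TI and 0.0351% to 0.127% in TIM. The arm of the hairpin in Ctdspl, miR-26a-1-3p, had 0 to 13 reads in a library and was not tested.

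miR-26b-3p had 4.90, 5.45 and 6.38 CPM in AG, 0.726 to 2.03 in TI and 0.643 to 2.02 in TIM, with no overlap between AG and tumors. The log2 fold change was -1.56 in TI (limma adjusted p = 3.88e-05) and -1.56 in TIM (limma adjusted p = 3.4e-05), on the log2(CPM + 1) scale, which understates the change of such low values. Both arms of the miR-26b hairpin were thus lower in the tumors. miR-101a-5p had 1.25, 1.26 and 1.39 CPM in AG, 0.208 to 4.58 in TI and 0.399 to 0.744 in TIM. It did not pass in TI (log2 fold change -0.19, limma adjusted p = 0.665) or in TIM (-0.52, limma adjusted p = 0.202), at 3 to 52 reads a library. All 8 TIM libraries nevertheless lay below all AG libraries, as did 22% of the miRNAs tested. In TI 5 of 7 libraries lay below all AG libraries and 2 above them. The log2(CPM + 1) scale understates changes at these values too, so an unchanged level of miR-101a-5p was not shown. miR-101b-5p had 0 to 20 reads a library and was not tested.

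miR-101c has the sequence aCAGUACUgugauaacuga, with its seed in capitals, and the whole of it is contained in miR-101a-3p. It had 7.74, 8.61 and 8.74 CPM in AG, 1.76 to 2.85 in TI and 1.60 to 5.14 in TIM. The log2 fold change of miR-101c was -1.49 in TI (limma adjusted p = 0.000106) and -1.45 in TIM (limma adjusted p = 0.000109), close to the values of miR-101a-3p. Its reads were 0.0395% to 0.0792% of those of miR-101a-3p in the libraries, and reads of the 2 cannot be told apart over these bases, so its values are uncertain.

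**Figure D4:**
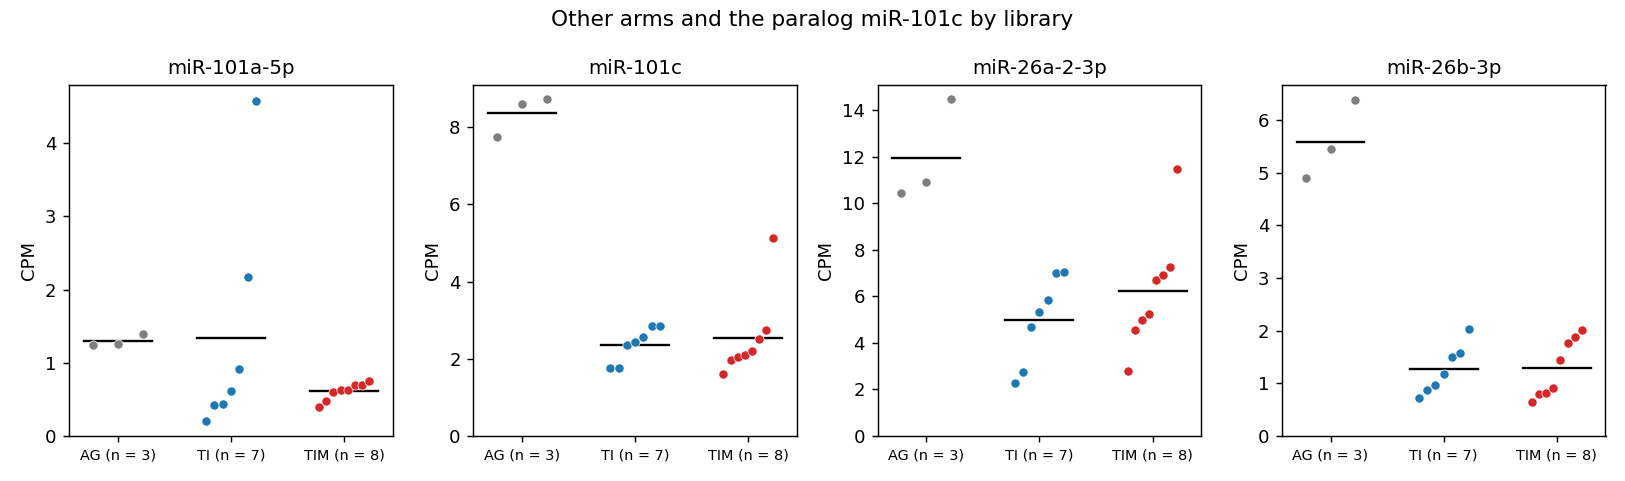
CPM on linear axes from 0 of the 3 passenger arms that passed the filter and of the paralog miR-101c in each library of AG, TI and TIM, with points sorted by value within a group and a line at the arithmetic mean. miR-101c and miR-26b-3p lie lower in every tumor library than in any AG library. miR-101a-5p ranges from 0.208 to 4.58 CPM in TI, around the AG values, and from 0.399 to 0.744 CPM in TIM, below them.

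Other miRNAs that general knowledge links to Ezh2 are a list of 16 chosen with earlier results of these data known. In TI 8 were lower, 3 higher and 5 did not pass, beside 29.3% lower and 26.4% higher of all miRNAs tested, and the median log2 fold change was -0.77 beside -0.01. In TIM 7 were lower, 3 higher and 6 did not pass, beside 25.9% and 25.5%, and the median was -0.80 beside 0.18. Those that rose in both were miR-138-5p and the neuronal miRNAs miR-124-3p and miR-137-3p, named after their values were seen. miR-124-3p had 4.72 ± 2.46 CPM (SD, n = 3) in AG and 212 ± 157 (SD, n = 7) in TI, a log2 fold change of 4.86 (limma adjusted p = 8.54e-05). Among the 4 most abundant of the list, let-7f-5p and let-7g-5p fell, with log2 fold changes of -1.45 and -1.22 in TI (limma adjusted p = 0.000669 and 0.000488) and -1.62 and -1.27 in TIM (limma adjusted p = 0.000207 and 0.000270). let-7i-5p had 0.27 in TI (limma adjusted p = 0.411) and let-7c-5p -0.64 (limma adjusted p = 0.0528).

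Of the other families with sites in the MYCN reporter, 24 of 27 miRNAs were tested. In TI 9 were lower and 0 higher, beside 29.3% and 26.4% of all miRNAs tested, with a median log2 fold change of -0.77 beside -0.01. In TIM 10 were lower and 1 higher, beside 25.9% and 25.5%, with a median of -0.68 beside 0.18. The one that rose was miR-17-5p, from 56.5 ± 26.6 CPM (SD, n = 3) in AG to 394 ± 308 (SD, n = 8) in TIM (log2 fold change 2.23, limma adjusted p = 0.0441). Both lists hold the let-7 family, and the same let-7 members were counted as lower in each, so the lists are not independent. Between TIM and TI limma and edgeR called 0 miRNAs of either list. DESeq2 called 0 of the first list and 1 of the second, and an unadjusted limma p under 0.05 was seen for 0 and 1.

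The miRNAs whose log2(CPM + 1) ran most alike with a member over the 18 libraries, among 400 with a mean of at least 10 CPM, were different for each guide. For miR-101a-3p they were miR-30d-3p, miR-30a-3p and miR-365-3p (Pearson's r = 0.92, 0.90 and 0.86). For miR-26a-5p they were let-7e-3p, miR-125a-5p and miR-27a-3p (0.96, 0.93 and 0.93), and for miR-26b-5p miR-29c-3p, miR-23a-3p and miR-29c-5p (0.94, 0.93 and 0.91). For miR-101b-3p the values were lower, with miR-101a-3p first (0.70), then miR-10b-3p (0.69) and miR-107-3p (0.68). Between members r was 0.85 for the miR-26 guides, 0.82 for miR-101a-3p with miR-26a-5p, and 0.36 and 0.31 for miR-101b-3p with miR-26a-5p and miR-26b-5p. The points share libraries and their scaling and fall into AG and tumors, so r also reflects the step between them.

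Of 30 miRNAs typical of particular cell types, 11 were called lower and 3 higher in TI, beside 29.3% lower and 26.4% higher of all miRNAs tested. In TIM 12 were called lower and 3 higher, beside 25.9% and 25.5%. The 2 endothelial markers (miR-126a-3p and miR-126a-5p) summed to 38529 to 46092 CPM in AG, 1704 to 6736 in TI and 2428 to 8943 in TIM, and both were called lower in both tumor types. The 3 smooth muscle markers summed to 121539 to 209381 CPM in AG, 15806 to 171339 in TI and 16036 to 101146 in TIM, with 2 of 3 and 3 of 3 lower. Leukocyte markers were lower for 3 and 4 of 5 (427 to 620, 53.5 to 348 and 69.5 to 215 CPM in sum), fibroblast markers for 3 and 2 of 3 (1973 to 3125, 330 to 1550 and 225 to 1253 CPM), and the hepatocyte marker miR-122-5p in both (780 to 2592, 4.68 to 48.1 and 4.25 to 82.4 CPM). The 3 neuronal markers were higher in both, from 367 to 592 CPM in AG to 3799 to 13346 in TI and 5079 to 18944 in TIM. Of the 13 erythroid, neuroendocrine, epithelial and striated muscle markers, limma and edgeR called 0 against AG, with 0 at an unadjusted limma p under 0.05, and DESeq2 called 2 in TI and 0 in TIM. No marker was at 0 in all 18 libraries. Between TIM and TI limma and edgeR called 0 of the 30, DESeq2 called 4, and 3 had an unadjusted limma p under 0.05. The part of these cell types in the fall of the miR-101 and miR-26 guides was not tested.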

How the data were processed

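Per the submitters' processing notes and the methods of the study, small RNA reads were trimmed (cutadapt 2.8), aligned to mm10 (Bowtie2 2.3.5.1), counted per mature miRNA (featureCounts 2.0.0) and normalized with TMM (edgeR 3.40). How reads with several matches were treated is not given in the sources used here. The authors deposited a signal for each of 1966 miRNAs and 18 libraries in CPM, computed on library totals multiplied by TMM factors. Further deposited columns hold fold changes on the log2 scale with p-values and FDR from the authors' own comparisons, and were not used. As 100% of values were whole multiples of 1 read, reads were recovered for alternatives.

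Group means were fitted in one model over 18 libraries (3 AG, 7 TI, 8 TIM) with limma 3.58.1 (lmFit, eBayes with trend, two-sided) in R 4.3.3, for miRNAs that reached 1 CPM in 3 or more libraries, at an adjusted p of 0.05. Ratios were tested as log2((a + 1)/(b + 1)) by two-sided exact permutation over all arrangements, doubling the smaller tail (Python 3.11.15, numpy 2.4.6). Scripts were tested on simulated data. Alternatives were pseudocounts of 0.1 and 5, other scalings, no filter or at least 10 CPM, only the 2 groups, edgeR 4.0.16 and DESeq2 1.42.0 on recovered reads, and each library left out. The scaling that excluded miR-148a-3p from the totals used no TMM factor. Leaving out the pair of TIM libraries with the highest TMM factors was added after seeing the data. Libraries are numbered in the order of the columns, which carry no mouse identity. No library was a copy of another of its group (0 identical pairs of 52), and pairs across groups were not compared. Each library held 11641696 to 23435621 reads, which limits counting error.

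Members and lists were chosen with earlier results of these data known. Named are the 4 guides, the other arms and paralogs, the 3 miRNAs with the highest r to each guide, and up to 4 examples of a list by highest mean CPM. Mature sequences are from RefSeq (GRCm38.p6, the mm10 assembly). Hosts and 3′UTRs are from GENCODE on GRCm39.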

Additional observations from a re-analysis of the deposited data

Results flagged for a closer look

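In 11 measures (the 4 guides, the 4 other mature miRNAs tested and the 3 ratios) the highest and lowest library of TI and of TIM were compared with the others of the group by Dixon's test on the log2 scale, which is 22 groups, 2 of which stood out where about 1.1 would by chance. The TIM library with 8139 CPM of miR-101a-3p stood apart from the other 7, with a gap to the next of 0.595 of the range. In the same library miR-101c, whose sequence is contained in miR-101a-3p, also stood apart, at 5.14 CPM with a gap of 0.576. Without this library the log2 fold change of miR-101a-3p in TIM against AG was -1.66 (limma adjusted p = 9.63e-06), and the difference between TIM and TI was -0.082 (limma adjusted p = 0.826).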

How the results depend on the processing

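The falls of miR-101a-3p and miR-26a-5p in both tumor types, and of miR-26b-5p in TIM, kept their direction and an adjusted p under 0.05 in all alternatives run, including each library left out, but with totals that exclude miR-148a-3p they shrank to -1.05 and -0.93 for miR-101a-3p, -1.74 and -1.73 for miR-26a-5p and -1.46 for miR-26b-5p. Without the TMM factor, limma gave for miR-101b-3p -0.83 in TI (adjusted p = 0.0535), 0.0055 for TIM and 0.84 for TIM against TI (adjusted p = 0.0367), and between TIM and TI 0.61 for miR-101a-3p (adjusted p = 0.0522), 0.50 for miR-26a-5p and 0.19 for miR-26b-5p. Totals that exclude miR-148a-3p also omit the TMM factor. With these totals, miR-101b-3p had -0.091 in TI and 0.26 in TIM, miR-26b-5p -1.16 in TI, and miR-26a-5p 0.0091 between TIM and TI. Without the TMM factor the median of all miRNAs tested was -0.15 for TI, 0.41 for TIM and 0.49 between them, and with miR-148a-3p excluded 0.34, 0.57 and 0.13. When the model held the 2 groups alone, miR-101b-3p in TI had -0.62 (limma adjusted p = 0.0520). Between TIM and TI, miR-101a-3p had -0.0070 with median ratio scaling and -0.0042 with DESeq2. The fall of miR-26b-5p in TI kept its call with each library left out. The cause of these shifts was not tested. The ratio of miR-101b-3p to miR-101a-3p passed in TI (0.96) and TIM (1.18) with the p from the absolute difference (exact permutation test, adjusted p = 0.0375). Leaving out each library gave -0.72 to -0.55 for miR-101b-3p in TI, with the call lost in 5 of 10 fits, and between TIM and TI -0.082 to 0.12 for miR-101a-3p, -0.21 to 0.11 for miR-26a-5p and -0.11 to 0.26 for the ratio of miR-101a-3p to miR-26a-5p. Without the pair of TIM libraries with the highest TMM factors, added after seeing the data, TIM minus TI was 0.23 for miR-26a-5p and -0.081 for the ratio of miR-101a-3p to miR-26a-5p, and no call changed. No paired analysis was possible because a column names only its group and no replicate number. With 3 AG libraries, the smallest exact permutation p was 0.0167 in TI and 0.0121 in TIM, which limits what adjusted ratio tests can pass.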
